A study of Mus musculus with 12 samples.

Results

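Transforming growth factor beta (TGF-beta) signalling was followed through 9 of the 23845 genes in the expression tables, chosen by name: the ligand Tgfb1, the receptors Tgfbr1 and Tgfbr2, the transducers Smad2, Smad3 and Smad4, and the inhibitors Smad7, Ski and Skil. All 9 were measured in every library, and all 9 were among the 15295 genes that passed the filter on low counts. TGF-beta binds the type II receptor Tgfbr2, which recruits and phosphorylates the type I receptor Tgfbr1. Tgfbr1 phosphorylates Smad2 and Smad3, which join Smad4 and enter the nucleus to regulate genes, while Smad7 blocks the receptor and Ski and Skil (SnoN) hold SMAD-bound promoters in a repressed state. In the mouse brain, microglia depend on this pathway to keep the resting gene programme marked by genes such as P2ry12, Tmem119 and Sall1.

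The libraries were made from polyadenylated RNA of mouse microglia isolated on Percoll density gradients from C57BL6/J animals 3 to 4 months old, with 1 animal per library. There were 4 groups of 3 libraries: CPEB1-KO animals collected 24 h after an injection of LPS (CPEB1-KO-LPS), untreated CPEB1-KO animals, WT animals collected 24 h after LPS (WT-LPS), and untreated WT animals. LPS (lipopolysaccharide) is a bacterial outer-membrane component that activates Toll-like receptor 4, and CPEB1 binds cytoplasmic polyadenylation elements (CPEs) in 3′ untranslated regions and through them regulates poly(A) tail length and translation. The labels give neither the dose nor the route of LPS nor the part of the Cpeb1 gene that was deleted, and the deletion is not stated to be restricted to any cell type.

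Totals ran from 5024832 to 13544197 expected counts per library. Cpeb1 itself was read at 56.5, 68.5 and 50.0 scaled CPM (counts relative to library size, normalized between libraries) in CPEB1-KO-LPS, at 32.0, 44.6 and 36.5 in CPEB1-KO, at 66.3, 45.5 and 72.4 in WT-LPS and at 37.99, 40.4 and 90.9 in WT, so gene-level counts did not separate the libraries labelled CPEB1-KO from those labelled WT, and group names below are the labels. Microglial markers were present in all libraries, and those of neurons and other brain cells were present too. The summed level of 10 microglial and macrophage markers was 4034 to 13975 TPM (transcript abundance scaled for length and depth) in CPEB1-KO-LPS, 6563 to 10500 TPM in CPEB1-KO, 4124 to 18800 TPM in WT-LPS and 12455 to 15397 TPM in WT. The summed level of 12 neuronal markers was 2611 to 4889 TPM in CPEB1-KO-LPS, 4121 to 5691 TPM in CPEB1-KO, 2247 to 6270 TPM in WT-LPS and 1397 to 3983 TPM in WT. No marker on either list was at 0 throughout a group. Some libraries stood apart from their group. WT-LPS replicate 1 had the lowest microglial sum of its group (4124 TPM, against 12920 and 18800 TPM), and CPEB1-KO-LPS replicate 3 had the highest of its own (13975 TPM, against 4034 and 6147 TPM). CPEB1-KO-LPS replicate 3 also carried 1.503% haemoglobin reads, while the other 5 LPS libraries had 0.129 to 0.242% and the untreated libraries 0.576 to 1.63%. In bulk RNA a lower level can mean fewer cells of a type or less RNA per cell, and the 2 cannot be told apart here.

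Levels of the 9 genes, given per transcript length in TPM so that genes can be set side by side, spanned a broad range. Ski averaged 59.6 ± 21.5 TPM (SD over 12 libraries), Tgfbr1 53.2 ± 31.4 and Tgfb1 48.1 ± 21.3. These are well-expressed genes, above 88.6%, 87.3% and 86.1% of all genes in the tables. Tgfbr2 averaged 26.9 ± 10.5 TPM, Skil 21.7 ± 11.4, Smad3 18.3 ± 2.45 and Smad4 17.98 ± 5.05. Smad7 at 10.4 ± 1.65 TPM and Smad2 at 6.68 ± 1.72 were the least abundant. Neighbours in this order (Ski, Tgfbr1 and Tgfb1; Tgfbr2 and Skil; Smad3 and Smad4) differed by less than their own spread across libraries. The members also differed in how steady they were: Smad3 ran from 14.3 to 22.6 TPM over the 12 libraries, while Tgfbr1 ran from 9.21 to 110 TPM.

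Promoter sequences are shown for the receptors and for Ski, the members whose levels are compared most closely in what follows. They come from RefSeq on build GRCm38.p6, read 5′ to 3′ on the gene's own strand from 250 bases before to 50 bases after the transcription start. Capitals mark CAGAC (a SMAD-binding core), GGCGC (a GC-rich SMAD-binding core) and GAGGAA (a core of PU.1 and other ETS factors) on either strand, matches may overlap, and the palindrome GGCGCC counts once on each strand.
Tgfbr1, chr4:47352972-47353271, plus strand: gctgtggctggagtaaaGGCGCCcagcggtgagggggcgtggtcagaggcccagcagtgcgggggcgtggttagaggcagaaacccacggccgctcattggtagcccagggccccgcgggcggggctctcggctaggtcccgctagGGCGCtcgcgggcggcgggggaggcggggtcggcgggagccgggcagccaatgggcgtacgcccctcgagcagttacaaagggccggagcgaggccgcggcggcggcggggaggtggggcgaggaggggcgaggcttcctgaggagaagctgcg
Tgfbr2, chr9:116175314-116175613, minus strand: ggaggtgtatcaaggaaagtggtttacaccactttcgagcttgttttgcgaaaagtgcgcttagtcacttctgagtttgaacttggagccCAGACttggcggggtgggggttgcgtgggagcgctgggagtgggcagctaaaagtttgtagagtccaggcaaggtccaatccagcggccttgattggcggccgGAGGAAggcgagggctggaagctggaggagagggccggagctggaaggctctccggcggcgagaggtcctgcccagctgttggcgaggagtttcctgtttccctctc
Ski, chr4:155222486-155222785, minus strand: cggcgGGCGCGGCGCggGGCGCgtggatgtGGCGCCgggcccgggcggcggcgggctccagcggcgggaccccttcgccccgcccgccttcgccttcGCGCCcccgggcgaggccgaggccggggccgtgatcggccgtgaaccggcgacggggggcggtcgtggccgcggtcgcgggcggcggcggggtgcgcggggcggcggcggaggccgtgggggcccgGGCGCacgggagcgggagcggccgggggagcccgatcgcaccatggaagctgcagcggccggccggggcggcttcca
The Tgfbr1 and Ski windows shown hold 3 and 7 GGCGC matches and neither of the other motifs, in windows of 74.7% and 85.3% G and C with 34 and 59 CpG. The Tgfbr2 window, at 59.0% G and C with 15 CpG, holds 1 CAGAC and 1 GAGGAA and no GGCGC. RefSeq lists a second Tgfbr1 promoter window, chr4:47385966-47386265, which is not printed and holds 1 CAGAC, 1 GAGGAA and no GGCGC. Of all 32851 promoter windows in the table, 49.6% hold CAGAC, 36.9% GGCGC and 28.3% GAGGAA, so these matches are common. The genes lie at chr4:47353222-47414931 (Tgfbr1), chr9:116084293-116175360 (Tgfbr2), chr4:155154075-155222592 (Ski), chr7:25687002-25705077 (Tgfb1), chr9:63646767-63757994 (Smad3) and chr3:31095058-31122577 (Skil) on build GRCm38 in GENCODE M21.

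The ligand and both receptors shared a pattern that followed individual libraries. Tgfb1, which encodes TGF-beta 1, was at 26.1, 20.0 and 87.4 scaled CPM in CPEB1-KO-LPS and at 55.6, 37.4 and 31.3 in CPEB1-KO, so the LPS libraries lay on both sides of the untreated ones. In WT-LPS it was at 25.7, 83.6 and 59.7, against 81.0, 137.1 and 84.1 in WT, where only WT-LPS replicate 2 reached the WT range. Tgfbr1, the kinase that carries the signal to the SMADs, was at 34.6, 29.7 and 163.7 in CPEB1-KO-LPS, against 212.3, 164.0 and 137.4 in CPEB1-KO. Replicates 1 and 2 of CPEB1-KO-LPS were far below all 3 untreated libraries, and replicate 3 was inside their range. In WT-LPS Tgfbr1 was at 46.5, 261.1 and 187.0, and all 3 lay below the 287.5, 548.5 and 340.1 of WT. Tgfbr2, the ligand-binding receptor, was at 33.1, 30.8 and 108.6 in CPEB1-KO-LPS and at 92.2, 63.1 and 53.3 in CPEB1-KO. It was at 38.3, 117.7 and 97.5 in WT-LPS and at 120.7, 136.0 and 84.8 in WT, and the groups overlapped in each pair.

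**Figure D1:**
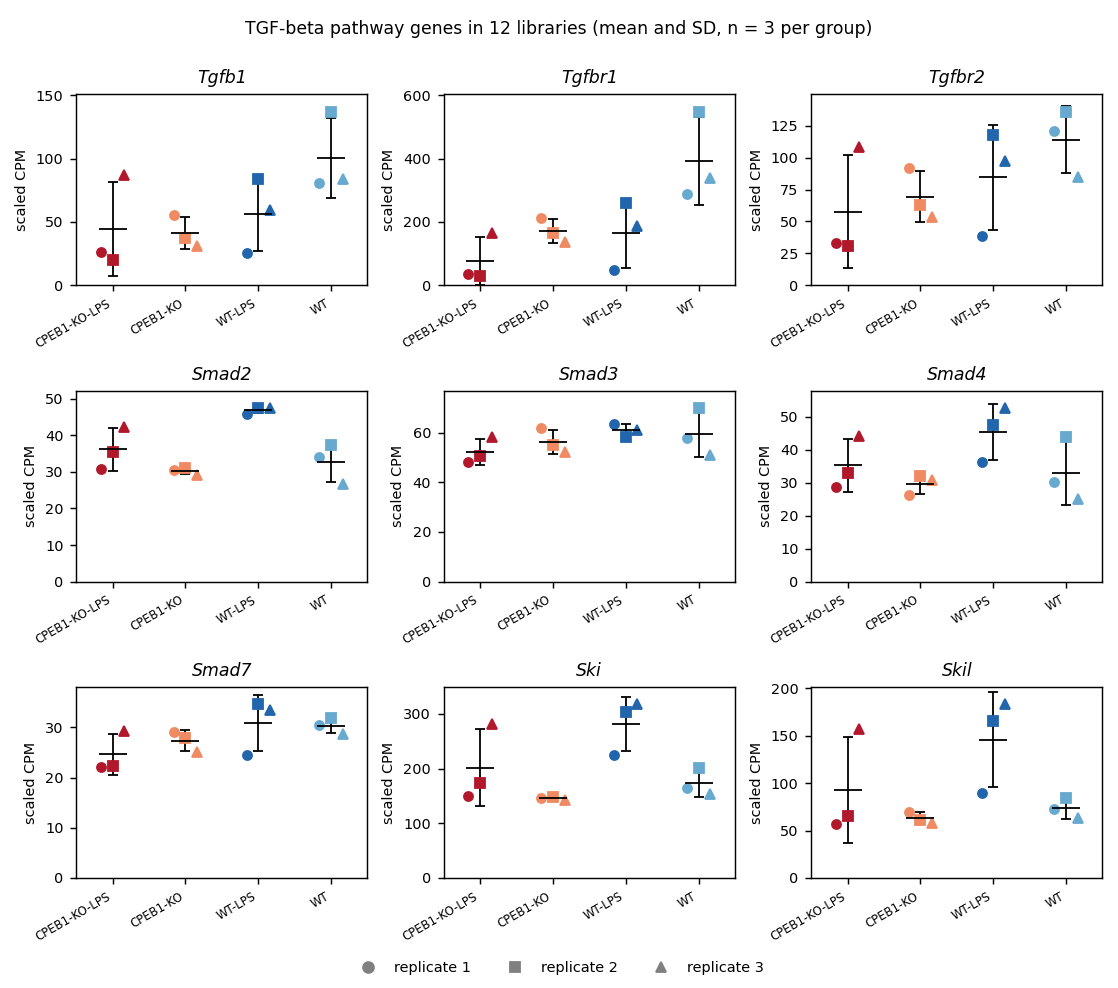
Scaled CPM (TMM-normalized counts relative to library size) of each of the 9 genes in 12 libraries, by group, with points for replicates and black marks for the mean and SD (n = 3). Tgfb1, Tgfbr1 and Tgfbr2 are low in WT-LPS replicate 1 and in CPEB1-KO-LPS replicates 1 and 2, while Smad3 stays between 48.1 and 69.9 scaled CPM throughout.

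Differences after LPS were tested with edgeR's quasi-likelihood test on the rounded counts of all genes, with Benjamini-Hochberg adjustment over all 15295 tested and a threshold of 0.05 on the adjusted p. None of the ligand and receptor genes passed it in either genotype. The log2 fold change of Tgfbr1 was -1.18 ± 0.64 (SE) in CPEB1-KO-LPS over CPEB1-KO (adjusted p = 0.329) and -1.25 ± 0.64 in WT-LPS over WT (adjusted p = 0.159). Averaged over both genotypes, with 6 libraries against 6, it was -1.21 ± 0.44 (adjusted p = 0.0557, and 0.0283 by DESeq2), and 5.24% of all genes tested had a lower value. Tgfb1 had an average LPS difference of -0.37 ± 0.38 (adjusted p = 0.498) and Tgfbr2 of -0.35 ± 0.33 (adjusted p = 0.453). CPEB1-KO-LPS replicate 3 bore on these values: without it Tgfbr1 fell by 2.41 ± 0.57 on the log2 scale in CPEB1-KO-LPS over CPEB1-KO (adjusted p = 0.0298), and the average difference was -1.75 ± 0.40 for Tgfbr1 (adjusted p = 0.00726) and -0.84 ± 0.28 for Tgfb1 (adjusted p = 0.0419). Without WT-LPS replicate 1 the average difference of Tgfbr1 was -0.98 ± 0.40 (adjusted p = 0.0866).

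Macrophage markers moved with the ligand and receptor transcripts. The mean log2 CPM of Aif1, Itgam, C1qa, C1qb and Ctss, pan-macrophage genes that are not on the list of TGF-beta-dependent genes, was 8.28, 7.83 and 9.52 in CPEB1-KO-LPS and 9.06, 8.65 and 8.36 in CPEB1-KO. It was 7.63, 10.02 and 9.16 in WT-LPS and 9.50, 10.4 and 9.84 in WT. The libraries with the 3 lowest marker means, WT-LPS replicate 1 and CPEB1-KO-LPS replicates 1 and 2, were also those with the 3 lowest values of Tgfb1, Tgfbr1 and Tgfbr2. With this marker mean as a covariate, an alternative added after the data had been seen, Tgfbr1 had an average LPS difference of -0.93 ± 0.22 on the log2 scale (adjusted p = 0.00624) and -1.39 ± 0.22 in CPEB1-KO-LPS over CPEB1-KO (adjusted p = 0.000888). In WT-LPS over WT its value with the covariate was -0.33 ± 0.24 (adjusted p = 0.312). Tgfb1 then had an average LPS difference of -0.02 ± 0.15 (adjusted p = 0.937) and Tgfbr2 of -0.10 ± 0.19 (adjusted p = 0.733). Aif1, among these markers, was itself called lower in WT-LPS over WT and in the average LPS test. The covariate can therefore carry part of an LPS difference, and the values fitted with it are not free of that.

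**Figure D2:**
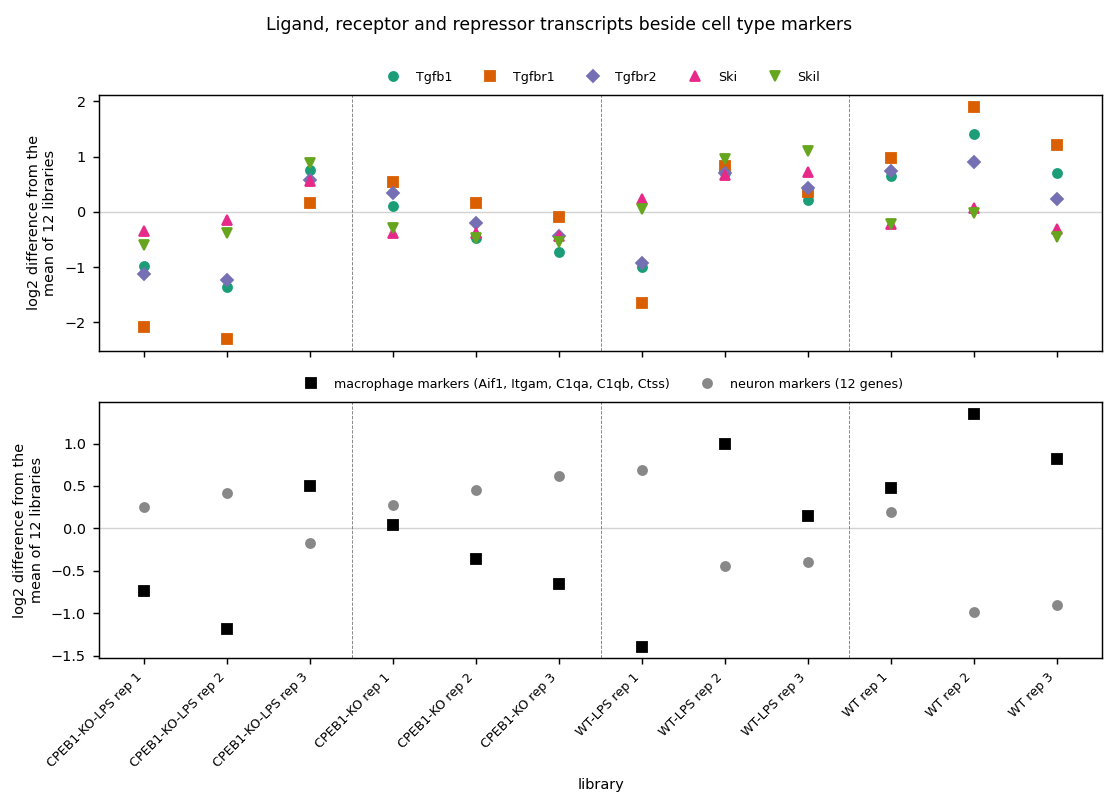
Top, log2 scaled CPM of Tgfb1, Tgfbr1, Tgfbr2, Ski and Skil in each library, as the difference from the mean of 12 libraries; bottom, the same for the mean of 5 macrophage markers and of 12 neuron markers (log2 CPM). Ligand, receptor and macrophage marker levels are lowest in WT-LPS replicate 1 and CPEB1-KO-LPS replicates 1 and 2.

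Genes whose levels were most like that of Tgfbr1 over the 12 libraries, by Pearson correlation of log2 CPM, included Mpeg1 (r = 0.984), which encodes the macrophage pore-forming protein perforin-2, and Gp9 (r = 0.981), known as a platelet glycoprotein. These correlations describe 12 libraries that differ in group and in their content of macrophage RNA.

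The SMAD transducers were steadier than the receptors. Smad2 and Smad4, like the inhibitor Smad7, lie on chromosome 18. Smad2, a receptor-regulated SMAD, was at 30.7, 35.5 and 42.4 scaled CPM in CPEB1-KO-LPS and at 30.5, 31.0 and 29.3 in CPEB1-KO. In WT-LPS it was at 45.8, 47.4 and 47.5, and all 3 lay above the 34.1, 37.4 and 26.8 of WT. Its average LPS difference was 0.39 ± 0.14 (adjusted p = 0.0507), with 0.26 ± 0.18 in CPEB1-KO-LPS over CPEB1-KO (adjusted p = 0.479) and 0.52 ± 0.19 in WT-LPS over WT (adjusted p = 0.0539). The average value and the WT value lay just above the threshold, and both passed it under DESeq2 (adjusted p = 0.0195 and 0.0204), while the CPEB1-KO value did not. Smad3, the other receptor-regulated SMAD, was at 48.1, 50.6 and 58.2 in CPEB1-KO-LPS, 61.8, 55.0 and 52.4 in CPEB1-KO, 63.5, 58.3 and 60.9 in WT-LPS, and 57.7, 69.9 and 51.2 in WT. No LPS difference of Smad3 exceeded the spread between replicates, with an average of -0.04 ± 0.12 (adjusted p = 0.848), a sign that turned to 0.12 on the TPM scale. Smad4, the shared partner of the other SMADs, was at 28.6, 32.9 and 44.3 in CPEB1-KO-LPS, 26.2, 32.1 and 30.9 in CPEB1-KO, 36.2, 47.6 and 52.7 in WT-LPS, and 30.1, 44.0 and 25.1 in WT. The groups overlapped, and its average LPS difference was 0.35 ± 0.17 (adjusted p = 0.152).

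Genes nearest to Smad3 in level over the 12 libraries were Gcc1 (r = 0.903), which encodes a Golgi coiled-coil protein, Heyl (r = 0.892), a Notch-responsive repressor, and Nuf2 (r = 0.861), a kinetochore component. Smad3 varied little, so these values rest on small differences between libraries.

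The inhibitors did not move as one. Smad7, which blocks Tgfbr1, was at 22.1, 22.4 and 29.4 scaled CPM in CPEB1-KO-LPS, 29.1, 27.9 and 25.0 in CPEB1-KO, 24.5, 34.6 and 33.6 in WT-LPS, and 30.5, 31.9 and 28.7 in WT. The groups overlapped in both pairs and the average LPS difference was -0.07 ± 0.14 (adjusted p = 0.763), with the sign turned on the TPM scale (0.08). Ski, a nuclear repressor of SMAD complexes, was at 150.4, 173.0 and 282.0 in CPEB1-KO-LPS, all above the 146.7, 147.2 and 142.5 of CPEB1-KO. It was at 225.2, 303.5 and 317.3 in WT-LPS, all above the 163.9, 200.6 and 154.3 of WT. Skil, which encodes the related repressor SnoN, was at 56.6, 65.5 and 157.5 in CPEB1-KO-LPS and at 70.1, 61.7 and 58.3 in CPEB1-KO, where only replicate 3 of CPEB1-KO-LPS stood above the untreated range. In WT-LPS it was at 89.1, 165.7 and 183.0, all above the 73.1, 84.2 and 62.8 of WT.

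Ski and Skil were the members called higher after LPS by edgeR. Averaged over genotypes, Ski rose by 0.59 ± 0.18 on the log2 scale, or 1.504-fold (adjusted p = 0.0249), and Skil rose by 0.77 ± 0.25, or 1.71-fold (adjusted p = 0.0365). The average LPS test called 25.7% of all genes, 13.2% as higher, against 2 of the 9 members, both higher, so the number called was close to that share. In WT-LPS over WT, Ski rose by 0.71 ± 0.25 (adjusted p = 0.0496) and was the only member called, where 27.4% of all genes were called and 12.4% were higher. Skil had 0.99 ± 0.36 there (adjusted p = 0.0538). In CPEB1-KO-LPS over CPEB1-KO no member was called, where 6.22% of all genes were (4.1% higher and 2.12% lower). There Ski had 0.47 ± 0.25 (adjusted p = 0.308) and Skil 0.55 ± 0.35 (adjusted p = 0.414), none of the 9 had an unadjusted p under 0.05, and DESeq2 also called 0. The median log2 fold change of the 9 was -0.04 for the average LPS difference, against -0.02 over all genes, 0.10 in CPEB1-KO-LPS over CPEB1-KO, against 0.00 over all genes, and 0.03 in WT-LPS over WT, against -0.03. Groups did not overlap for 4 members in WT-LPS against WT, with Smad2, Ski and Skil all higher and Tgfbr1 all lower, where 17.5% of all genes were all higher and 20.1% all lower. In CPEB1-KO-LPS against CPEB1-KO, Ski alone was all higher, where 18.9% of all genes were. Over both genotypes, 6 LPS libraries against 6 untreated, no member was free of overlap, where 7.19% of all genes were all higher and 6.07% all lower.

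These calls lay close to the threshold. Leaving out 1 library at a time, the call of Ski in WT-LPS over WT was kept only without WT-LPS replicate 1 or without replicate 1 or 3 of CPEB1-KO-LPS, and its adjusted p was 0.0530 to 0.137 in the other 9 fits. The average call of Ski was lost without WT replicate 1, WT-LPS replicates 2 or 3, or CPEB1-KO-LPS replicate 3 (adjusted p of 0.0533 to 0.0581), and that of Skil was lost without any 1 of those or of WT replicates 2 and 3 and CPEB1-KO replicates 2 and 3 (adjusted p of 0.0566 to 0.111). With the macrophage marker mean as a covariate, Ski rose on average by 0.70 ± 0.15 (adjusted p = 0.00401) and Skil by 0.94 ± 0.21 (adjusted p = 0.00432). The limit given above for this covariate, which can carry part of an LPS difference, applies here too.

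**Figure D3:**
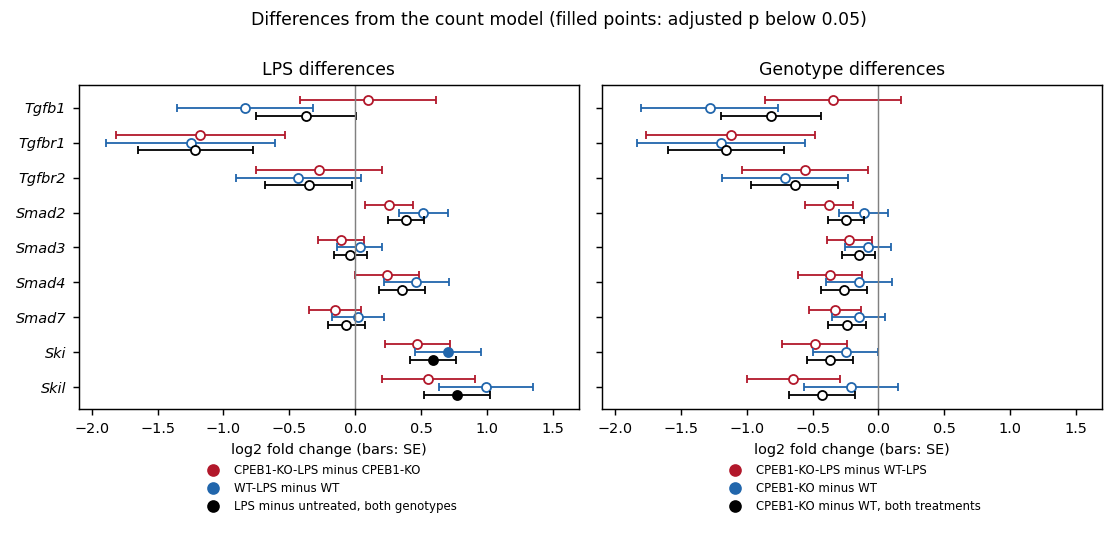
Log2 fold changes of the 9 genes from the count model with their SE, for LPS (left) and for genotype (right); filled points have an adjusted p under 0.05. Ski is filled for WT-LPS minus WT and for the average LPS difference, Skil for the average, and no genotype difference is filled.

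The genes nearest to Skil in level were Rab8b (r = 0.980), a small GTPase of membrane traffic, Runx1 (r = 0.978), a transcription factor of blood and microglial development, and Irak2 (r = 0.977), a kinase of Toll-like receptor signalling. Runx1 averaged 39.0 ± 43.8 scaled CPM in CPEB1-KO-LPS, 9.72 ± 2.56 in CPEB1-KO, 89.9 ± 53.5 in WT-LPS and 20.96 ± 5.32 in WT (SD, n = 3 each). Like Skil it was highest in WT-LPS replicates 2 and 3 and in CPEB1-KO-LPS replicate 3.

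Genotype was examined next, since CPEB1 acts on mRNAs that carry a CPE. The last 150 bases of the 3′ untranslated region were searched on the sense strand for TTTTAT or TTTTAAT in the 8 members whose region is that long; Tgfb1, with a region of 135 bases, was not searched. Skil alone held a match, which 23.8% of 16094 genes do. The site lies in the 3′ untranslated region of the last exon, at chr3:31122548-31122577 on the plus strand of GRCm38, and is printed with the CPE letters in capitals; the poly(A) signal aataaa stands just before it.
Skil: ttcccaataaaaacTTTTAATgccaatgaa
The first base of the CPE is 16 bases from the annotated end and that of the poly(A) signal 25 bases from it. The level of Skil in the libraries labelled CPEB1-KO and WT is given above, and its log2 fold change was -0.21 ± 0.36 in CPEB1-KO over WT (adjusted p = 0.770) and -0.65 ± 0.35 in CPEB1-KO-LPS over WT-LPS (adjusted p = 0.513). The tables measure RNA abundance, not poly(A) tail length or translation.

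No member was called in a genotype comparison, where 0.0327% of all genes were called in CPEB1-KO over WT, 0.00654% in CPEB1-KO-LPS over WT-LPS and 0.111% for the average genotype difference (0.0196% higher and 0.0915% lower). No member was free of overlap between the 6 libraries labelled CPEB1-KO and the 6 labelled WT, where 0.196% of all genes were all higher and 0.131% all lower. The largest log2 fold changes belonged to the ligand and the type I receptor. Tgfb1 had -1.28 ± 0.52 in CPEB1-KO over WT (adjusted p = 0.226), with all 3 libraries labelled CPEB1-KO below all 3 labelled WT, and -0.35 ± 0.51 in CPEB1-KO-LPS over WT-LPS (adjusted p = 0.814). Tgfbr1 had -1.19 ± 0.64 in CPEB1-KO over WT (adjusted p = 0.331), again without overlap, and -1.12 ± 0.64 in CPEB1-KO-LPS over WT-LPS (adjusted p = 0.527). Tgfbr2 had -0.71 ± 0.48 in CPEB1-KO over WT (adjusted p = 0.428). Ski was also lower in each untreated CPEB1-KO library than in any WT library, at -0.25 ± 0.25 (adjusted p = 0.598), where 13.9% of all genes were all lower. After LPS, Smad2 and Smad3 did not overlap and were all lower in CPEB1-KO-LPS than in WT-LPS, where 5.72% of all genes were all lower and 8.49% all higher. The log2 fold change was -0.37 ± 0.18 for Smad2 (adjusted p = 0.482) and -0.22 ± 0.17 for Smad3 (adjusted p = 0.636). For Smad3 the groups all but touched, at 58.247 scaled CPM in CPEB1-KO-LPS replicate 3 and 58.254 in WT-LPS replicate 2. By edgeR the number of members with an unadjusted p under 0.05 was 1 in CPEB1-KO over WT (Tgfb1), 0 in CPEB1-KO-LPS over WT-LPS and 1 for the average genotype difference (Tgfbr1). Over all 15295 genes it was 2844, 1653 and 1772 in the same order. By DESeq2 it was 1 member (Tgfb1), 2 (Smad2 and Ski) and 4 (Tgfb1, Smad2, Tgfbr1 and Ski), where 3224, 1928 and 2184 of all genes had such a p. After adjustment DESeq2 called 0 members in each.

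Mean levels of cell type markers were also apart in the untreated libraries, although 0 of the 10 microglial and 0 of the 12 neuronal genes were called in CPEB1-KO over WT or in CPEB1-KO-LPS over WT-LPS. The 5 macrophage markers averaged 8.36 to 9.06 log2 CPM in CPEB1-KO and 9.50 to 10.4 in WT, and the 12 neuron markers 8.69 to 9.03 in CPEB1-KO and 7.44 to 8.62 in WT, with no overlap on either list. After LPS the groups overlapped, at 7.83 to 9.52 in CPEB1-KO-LPS and 7.63 to 10.02 in WT-LPS for the macrophage markers, and 8.25 to 8.83 in CPEB1-KO-LPS and 7.97 to 9.11 in WT-LPS for the neuron markers. With the macrophage mean as a covariate Tgfbr1 had 0.31 ± 0.25 in CPEB1-KO over WT (adjusted p = 0.719) and Tgfb1 -0.15 ± 0.24 (adjusted p = 0.859), and with the neuron mean they had 0.28 ± 0.53 (adjusted p = 0.990) and -0.18 ± 0.46 (adjusted p = 0.993). Because neither marker mean overlapped between the untreated groups, these fits cannot tell genotype from marker level. On the TPM scale, where the median gene lies 0.27 higher in CPEB1-KO over WT, the sign of the genotype difference turned for Smad2, Smad3, Smad4, Smad7, Ski and Skil but not for Tgfb1, Tgfbr1 or Tgfbr2.

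The LPS response of the members was not shown to differ between genotypes. The interaction, the LPS difference in CPEB1-KO minus that in WT, called no member, where 0.00654% of all genes were called, and no member had an unadjusted p under 0.05 by edgeR or a call by DESeq2. The values ran from -0.44 ± 0.50 for Skil (adjusted p = 0.695) to 0.93 ± 0.73 for Tgfb1 (adjusted p = 0.552). Smad2 had -0.26 ± 0.26, Ski -0.23 ± 0.35, Smad4 -0.22 ± 0.35, Smad7 -0.18 ± 0.28, Smad3 -0.14 ± 0.25, Tgfbr1 0.07 ± 0.89 and Tgfbr2 0.15 ± 0.67. On the TPM scale the values of Tgfbr1 and Tgfbr2 turned to -0.44 and -0.31.

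Around the 9 members, some other genes of the pathway differed after LPS by more than any member did. The counts below are read against all genes tested, of which the average LPS test called 13.2% as higher and 12.5% as lower, with a median of -0.02. Of 14 tested genes for other ligands and for the storage and activation of latent TGF-beta, 5 rose and 0 fell on average after LPS, with a list median of 0.36. Mmp14, a membrane metalloprotease that can release latent TGF-beta, rose by 3.27 ± 0.39 on the log2 scale (adjusted p = 5.21e-05) and averaged 107 ± 88.3 scaled CPM in CPEB1-KO-LPS, 12.9 ± 2.84 in CPEB1-KO, 209 ± 96.7 in WT-LPS and 18.5 ± 7.73 in WT. Lrrc32 (GARP), which tethers latent TGF-beta to the cell surface, rose by 2.05 ± 0.28 (adjusted p = 0.00019). Dcn, encoding the TGF-beta-binding proteoglycan decorin, rose by 1.55 ± 0.24 (adjusted p = 0.000439), and Thbs1, whose product thrombospondin-1 activates latent TGF-beta, rose by 1.45 ± 0.28 (adjusted p = 0.00234). All 6 LPS libraries were above all 6 untreated libraries for each of these 4 genes, as they were for 7.19% of all genes.

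Of 9 co-receptors and receptor-level regulators, 2 rose and 0 fell, with a median of 0.44, where 25.7% of all genes were called, so the number called was close to that share. These were Cd109, a co-receptor that restrains the pathway (2.26 ± 0.39, adjusted p = 0.000971), and Dab2, an adaptor that links receptors to SMADs (1.43 ± 0.24, adjusted p = 0.000898). Untreated libraries held few Cd109 counts, 8, 10 and 11 in CPEB1-KO and 2, 8 and 3 in WT, so the size of its rise is imprecise. Tgfbr3 had 0.42 ± 0.15 (adjusted p = 0.0542) and Strap 0.46 ± 0.17 (adjusted p = 0.0559). Of 18 regulators of SMAD proteins, 2 rose and 2 fell on average, with a median of 0.17, again close to the share of all genes called. In WT-LPS over WT 4 rose and 3 fell, where 12.4% of all genes rose and 14.9% fell. In CPEB1-KO-LPS over CPEB1-KO Tgif1 alone was called, as higher, where 6.22% of all genes were called. The interaction called 0 of the 18. On average Tgif1, a homeodomain co-repressor of SMADs, rose by 2.27 ± 0.37 (adjusted p = 0.000596), and Crebbp, a co-activator, rose by 1.09 ± 0.25 (adjusted p = 0.00683). Pmepa1, a TGF-beta-induced inhibitor of SMAD activation, fell by 0.87 ± 0.25 (adjusted p = 0.0219), a call lost without WT replicate 2 or WT-LPS replicate 3, and Tgif2 fell by 0.66 ± 0.22 (adjusted p = 0.0411), a call lost without any 1 of 8 libraries.

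In the BMP and activin arm of the family 4 of 17 tested genes rose and 2 fell on average, with a median of 0.02, where 13.2% of all genes rose and 12.5% fell. In WT-LPS over WT 4 rose and 2 fell (median 0.16), where 12.4% of all genes rose and 14.9% fell. In CPEB1-KO-LPS over CPEB1-KO 0 rose and 0 fell (median -0.33), where 4.1% of all genes rose and 2.12% fell. The interaction called 0 of the 17. On average Smad1, a BMP-regulated SMAD, rose by 0.60 ± 0.14 (adjusted p = 0.00642) and Acvr1b, an activin receptor, by 1.04 ± 0.26 (adjusted p = 0.0104). The ligand Bmp6 fell by 0.99 ± 0.23 (adjusted p = 0.00676), and the ligand Bmp7 fell by 0.85 ± 0.23 (adjusted p = 0.0158). Markers of the choroid plexus, the epithelium that secretes cerebrospinal fluid, were lower after LPS too. Their summed level was 2516 to 3720 TPM in CPEB1-KO-LPS, 7161 to 9154 TPM in CPEB1-KO, 1123 to 2300 TPM in WT-LPS and 4436 to 7773 TPM in WT, and all 6 fell in the average LPS test, with a median of -1.70. Their part in the lower values on these lists was not tested.

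Genes induced by TGF-beta in many cell types included strong LPS-induced genes, and microglial genes that depend on TGF-beta included strongly lowered ones. Of 17 tested common target genes, 9 rose and 1 fell, with a median of 0.58. Cdkn1a, a cell cycle inhibitor, rose by 3.86 ± 0.18 (adjusted p = 1.9e-08), Timp1, a metalloprotease inhibitor, by 4.69 ± 0.48 (adjusted p = 1.48e-05) and Tgfbi, an extracellular matrix protein, by 2.75 ± 0.31 (adjusted p = 3.47e-05). These genes are known to be induced by other signals too, including inflammatory ones. Untreated libraries held few Timp1 counts, 6, 4 and 4 in CPEB1-KO and 4, 10 and 14 in WT, so the size of its rise is imprecise. The summed level of monocyte markers was higher after LPS as well. It was 101 to 157 TPM in CPEB1-KO-LPS, 22.3 to 91.6 TPM in CPEB1-KO, 244 to 501 TPM in WT-LPS and 45.3 to 63.8 TPM in WT. Of these 6 markers 3 rose and 1 (Ccr2) fell on average, with a median of 1.23. In WT-LPS over WT 4 rose and 0 fell, where 12.4% of all genes rose and 14.9% fell. In CPEB1-KO-LPS over CPEB1-KO 0 rose and Ccr2 alone fell, where 4.1% of all genes rose and 2.12% fell. Fn1, which encodes fibronectin, is both a monocyte marker and on the list of common targets, and the part of monocyte RNA in the list values was not tested. Of 15 tested microglial genes known in mouse to depend on TGF-beta, 0 rose and 9 fell, with a median of -1.48. Gpr34, a lysophosphatidylserine receptor, was at 3.37, 1.41 and 10.6 scaled CPM in CPEB1-KO-LPS, against 171, 118 and 113 in CPEB1-KO, and at 1.62, 10.4 and 4.28 in WT-LPS, against 247, 312 and 253 in WT, and fell on average by 5.21 ± 0.50 on the log2 scale (adjusted p = 7.46e-06). All 6 LPS libraries were below all 6 untreated ones, and 6.07% of all genes shared that separation. Olfml3, a secreted microglial protein, fell by 3.56 ± 0.38 (adjusted p = 1.93e-05), Gpr56, an adhesion receptor, fell by 1.48 ± 0.18 (adjusted p = 8.41e-05) and Slc2a5, a fructose transporter, fell by 4.52 ± 0.59 (adjusted p = 0.000115). In CPEB1-KO-LPS over CPEB1-KO 5 of the 15 fell, where 2.12% of all genes did, and in WT-LPS over WT 9 fell, where 14.9% of all genes did. The interaction called 0 of them. The count in CPEB1-KO was 10 without replicate 3 of CPEB1-KO-LPS and 3 without either of the others in that group. On average 13 fell without that replicate 3, and 10 fell with the macrophage marker covariate, against 9.

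**Figure D4:**
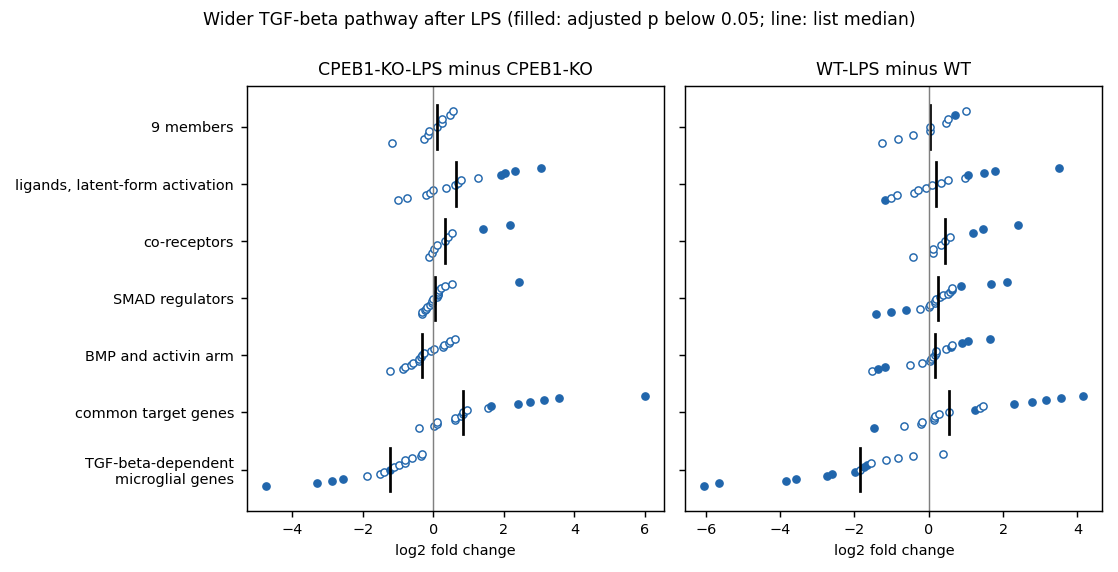
Log2 fold changes after LPS of the 9 members and of the genes on 6 wider lists, in CPEB1-KO (left) and WT (right); filled points have an adjusted p under 0.05 and black lines mark list medians. The TGF-beta-dependent microglial genes lie mostly below 0 (medians of -1.22 in CPEB1-KO and -1.85 in WT), while the common target genes reach the highest values.

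Slc2a5 was the only gene of the 6 wider lists called in a genotype comparison. It was at 6.53, 3.55 and 6.10 scaled CPM in CPEB1-KO, against 115, 67.5 and 53.8 in WT, and fell by 3.88 ± 0.35 on the log2 scale in the libraries labelled CPEB1-KO (adjusted p = 0.000367). After LPS it was at 0.898, 0.565 and 1.37 in CPEB1-KO-LPS and at 1.31, 1.20 and 1.05 in WT-LPS, with a log2 fold change of -0.39 ± 0.44 (adjusted p = 0.756). These values rest on 12, 8 and 12 counts in CPEB1-KO-LPS and 17, 12 and 12 in WT-LPS. A genotype difference as large as that in the untreated libraries was not seen after LPS, although the interaction did not call Slc2a5. Counts this low cannot show whether a smaller genotype difference was kept.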

How the data were processed

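Expression was measured by RNA-seq in 12 libraries, 3 per group. The authors deposited expected counts and TPM per gene. Tools listed in the submitters' processing notes are cutadapt and RSEM, with build mm10 and no versions or settings. Strandedness is not given in the sources used here. Expected counts were rounded and tested with edgeR 4.0.16 (R 4.3.3): TMM scaling, the default expression filter, a quasi-likelihood fit of 4 groups (8 residual degrees of freedom) or of genotype plus LPS (9), two-sided, with Benjamini-Hochberg adjustment over 15295 genes. SE is the log2 fold change divided by the root of F. TPM served for levels between genes. Alternatives were RLE scaling, DESeq2 1.42.0, no filter, limma 3.58.1 on log2(TPM + 1) or log2(TPM + 0.1) for genes with at least 1 TPM in 3 libraries, a replicate block, marker covariates, the compared groups alone, and each library left out. Members and lists were chosen with earlier results of these data known. Besides members, the text names up to 4 genes per list by smallest p in the average LPS test, listed genes called for genotype, and up to 3 nearest genes for Tgfbr1, Smad3 and Skil; some genes that this rule names are not reported here. Fewest reads behind a member were 132 counts (Smad4).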

Additional observations from a re-analysis of the deposited data

How the results depend on the processing

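The number of members called in WT-LPS over WT was 1, and it was 3 with DESeq2, 2 with no filter, 4 with limma on either TPM scale, 0 with the replicate block, 3 with the neuron covariate, 4 with the macrophage covariate (added after the data were seen) and 0 to 3 leaving out 1 library. In CPEB1-KO-LPS over CPEB1-KO it was 0, and 1 with either covariate (Tgfbr1) and 0 to 1 leaving out 1 library. For the average LPS difference it was 2, and 4 with DESeq2 or either covariate and 0 to 3 leaving out 1 library. Every genotype and interaction count of members stayed at 0 in all alternatives run. No called value of a member changed sign, while 70 of 1296 values under alternatives did so with no call on either side. The labels do not say that replicate numbers pair the samples. Deviations of same-numbered libraries correlated by -0.344 to 0.378, and with 3 libraries a group these values cannot decide whether the numbers mark a pairing. With the replicate block 3720 genes were called in WT-LPS over WT and 3363 on average, against 4185 and 3932 without it. Skil then lost its average call (adjusted p = 0.0677) while Tgfbr1 gained one (adjusted p = 0.0358).

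Over all genes, counts moved most for genotype: in CPEB1-KO over WT 5 genes were called, against 500 with DESeq2, 11 with no filter and 1292 without WT replicate 1, and in the interaction 1, against 301 with DESeq2 and 441 without that library. In WT-LPS over WT, 2592 genes were called with those groups alone. Leaving out 1 library gave 2714 to 4724 calls there, 355 to 1132 in CPEB1-KO-LPS over CPEB1-KO and 5 to 47 for the average genotype difference. CPEB1-KO-LPS over WT-LPS had 1 call, against 90 with DESeq2, the average genotype difference 17, against 108, and CPEB1-KO-LPS over CPEB1-KO 952, against 1655 with DESeq2 and 2024 with the macrophage covariate. On the TPM scale the median gene moved by 0.29 in WT-LPS over WT, and 3339 genes were higher and 1096 lower, against 1900 and 2285 on the count scale, and for the average LPS difference 2329 were higher and 1268 lower, against 2015 and 1917. The cause of these shifts was not tested. With 3 animals a group, precision is limited by the spread between animals, a common coefficient of variation of 0.282.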

Other observations

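The balance between the 2 receptors differed between LPS and untreated libraries, a pattern noticed after the values were seen and given without a test. The ratio of Tgfbr1 to Tgfbr2 in TPM was 0.865, 0.800 and 1.26 in CPEB1-KO-LPS, against 1.91, 2.15 and 2.14 in CPEB1-KO. It was 1.01, 1.85 and 1.60 in WT-LPS, against 1.98, 3.34 and 3.32 in WT. All 6 LPS libraries lay below all 6 untreated libraries, while the levels of each receptor overlapped between these sets of 6. How often ratios of other gene pairs separate these sets was not counted, so the separation cannot be called unusual. The closest values of the receptor ratio were 1.85 in WT-LPS replicate 2 and 1.91 in CPEB1-KO replicate 1. Within WT-LPS the ratio was lowest in replicate 1, the library with the lowest macrophage marker mean, and the part of cell content in the ratio was not tested.

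The ratio of Ski to Skil in TPM, both repressors of SMAD complexes, was 3.43, 3.41 and 2.32 in CPEB1-KO-LPS, 2.71, 3.09 and 3.15 in CPEB1-KO, 3.25, 2.35 and 2.23 in WT-LPS and 2.90, 3.02 and 3.11 in WT. The lowest values were in WT-LPS replicates 2 and 3 and CPEB1-KO-LPS replicate 3, the LPS libraries in which Skil was highest.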
